A study of Mus musculus with 17 samples.

Results

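The genes described here encode proteins that load, dock, fuse and retrieve synaptic vesicles, and they were followed in bulk RNA sequencing of mouse dorsal hippocampus. The set was given as a list of 41 gene symbols, and all 41 were found among the 24498 symbols of the count table. The rule for the list used no measured value, although earlier results of these data were known when it was drawn up. They comprise 9 vesicle proteins, 4 SNAREs, 6 SNARE regulators and disassembly factors, 7 synaptotagmins, 3 Rab3 GTPases, 8 active zone proteins and 4 endocytosis proteins. All 41 passed the filter on low counts in every comparison, and the lowest count of any of them in any library was 48.

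At a presynaptic terminal, vesicles filled with transmitter are held in clusters by synapsins and near the membrane by a scaffold of Rim, Munc13, Bassoon and Piccolo proteins. Fusion is driven by a complex of SNARE proteins on the vesicle and on the plasma membrane, with synaptotagmins as calcium sensors and complexins as clamps and promoters. NSF and its SNAP adaptors then take the spent SNARE complexes apart, and dynamin, amphiphysin and synaptojanin retrieve the vesicle membrane. In hippocampus the genes are expressed chiefly by neurons, so their level in a slice also depends on how much neuronal tissue of each region the slice holds.

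The study asked how loss of acetyl-CoA synthetase 2 (ACSS2), the enzyme that makes acetyl-CoA from acetate, alters the response to pathological tau. Wild-type (WT) mice were compared with mice carrying a constitutive Acss2 knockout (KO), and both genotypes descended from the F1 offspring of heterozygous parents. At 6 months of age they received an injection into the right dorsal hippocampus of tau purified from the brains of people with Alzheimer's disease (Tau), or of phosphate-buffered saline (PBS). Poly(A) RNA was taken from thick slices with all CA fields and the dentate gyrus.

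The 17 libraries fell into 6 groups by sex, genotype and injection. Male WT PBS (libraries 791, 792 and 793), male WT Tau (771, 772 and 773), male KO PBS (751, 752 and 753), male KO Tau (711, 712 and 713) and female KO Tau (314, 324 and 325) had 3 libraries each, and female WT Tau had 2 (331 and 341). No female PBS group was analysed here, so an effect of Tau could be examined in males alone. All female libraries have numbers that begin with 3 and all male libraries numbers that begin with 7, so sex and any difference between the numbered series cannot be told apart. Where no source says that libraries came from separate animals, p-values measure only the spread between these libraries.

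Total counts ran from 14183131 to 22463635 per library. Acss2 itself had 44.0 to 54.6 CPM (counts scaled to 1000000 per library) in the 8 WT libraries and 3.07 to 8.81 CPM in the 9 KO libraries, as the genotype labels require. The 41 genes together took 2.30 to 2.71% of the counts in 11 of the 12 male libraries, 1.81% in male KO Tau library 711 and 1.64 to 2.06% in the 5 female libraries. Library 711 was the lowest of the 12 male libraries for 24 of the 41 genes, and library 752 (male KO PBS) was the highest for 16. Calls, counts of genes without overlap and medians between male KO Tau and other male groups are therefore given below with and without library 711. In bulk RNA, fewer cells of a type and less RNA per cell cannot be told apart.

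Levels were first compared between genes per kilobase of exon in the 3 male WT PBS libraries. The most abundant was Snap25, a SNARE of the plasma membrane, at 407 CPM per kb. Syp, the vesicle membrane protein synaptophysin, followed at 356 CPM per kb, then Cplx2 (343) and Cplx1 (333), complexins that regulate the SNARE complex. Dnm1, the dynamin that pinches endocytic vesicles off, reached 340.4 CPM per kb. Slc17a7, which encodes VGLUT1, the transporter that fills vesicles with glutamate, reached 319 CPM per kb. Vamp2, the main vesicle SNARE of the forebrain, stood at 302 and Rab3a, a GTPase on the vesicle surface, at 269.6 CPM per kb. The median over the 41 genes was 63.5 CPM per kb.

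Within a family the levels per kb spanned wide ranges in the same libraries. Among the synapsins, Syn1 had 212, Syn2 114 and Syn3 3.78 CPM per kb. Among the SV2 glycoproteins of the vesicle membrane, Sv2a had 129, Sv2b 63.5 and Sv2c 0.804 CPM per kb, the lowest level in the set. The Munc13 priming factors were led by Unc13a at 35.3 CPM per kb, against 3.37 for Unc13c and 2.29 for Unc13b. Among the synaptotagmins, Syt1 had 233 CPM per kb, Syt11 203 and Syt2 4.09. The Rab3 GTPases ran from 269.6 (Rab3a) through 43.7 (Rab3c) to 16.6 (Rab3b). Rims3, a short Rim protein, had 3.27 CPM per kb against 9.34 for Rims1 and 9.61 for Rims2, the long Rim scaffolds.

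The spread over all 17 libraries also differed between the genes. The ratio of the highest to the lowest library was 1.56 for Cplx2 and 1.57 for Vamp2, the steadiest genes, with a median of 2.30 over the set. It was widest for Unc13c (11.4), Cplx3 (10.4), Rims3 (9.40), Syt2 (7.23) and Stx1a (5.68). Cplx3, a complexin found in few neuron types, had 2.99 CPM in library 751 and 3.66 CPM in library 711, against 31.0 CPM in library 712. Those 3 are all male KO libraries, so the genotype label does not separate them.

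**Figure D1:**
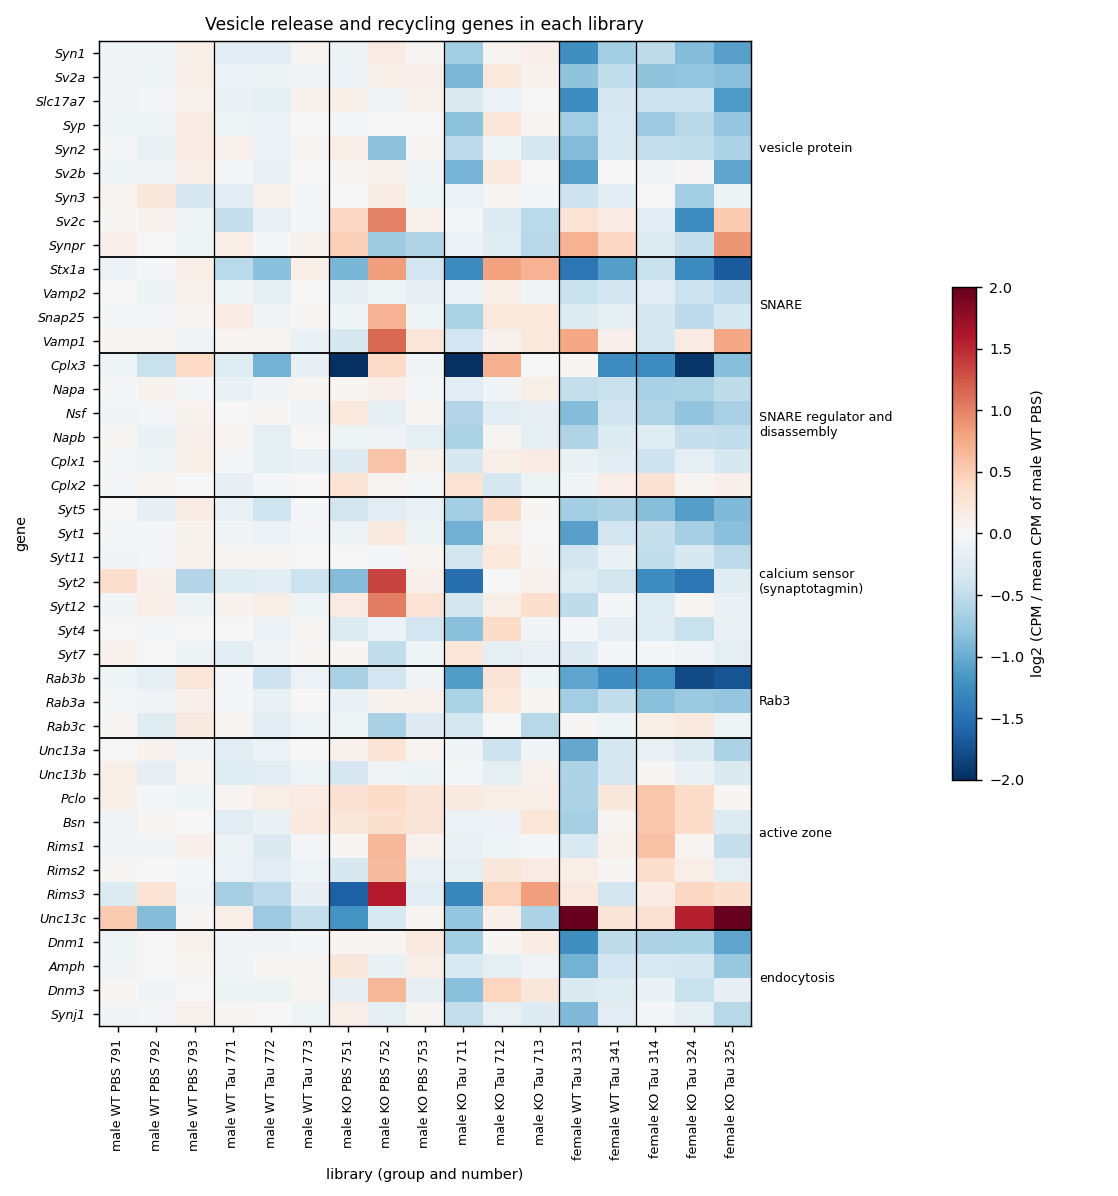
Heat map of the 41 genes (vertical axis, grouped by role) in the 17 libraries (horizontal axis, grouped by group). Colour gives log2 of the CPM over the mean CPM of male WT PBS, with colours saturated at 2 in either direction. Female libraries and library 711 are blue for most genes, library 752 holds the deepest red for Rims3 and Syt2, and Unc13c is red in 331, 324 and 325.

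Tau was then compared with PBS in male WT mice. Counts were tested with the quasi-likelihood test of edgeR over all genes, with Benjamini-Hochberg adjustment (edgeR FDR), and a gene was called at an FDR under 0.05. None of the 41 genes was called, beside 0% of the 15098 genes tested, and none had an unadjusted p under 0.05, beside 1.86% of all genes. DESeq2 on the same 12 libraries and limma voom also called none of the 41. Log2 fold changes (Tau minus PBS) were below 0 for 36 of the 41, with a median of −0.08 against −0.01 over all genes, and the smallest unadjusted p was 0.0791, for Unc13b.

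The individual values in male WT mice overlapped for nearly every gene. Unc13b, a Munc13 priming factor, had 56.0, 46.7 and 53.3 CPM after PBS and 43.7, 44.8 and 48.8 CPM after Tau, a log2 fold change of −0.20 ± 0.10 (standard error, SE). Rims2 was the single gene whose libraries did not overlap, at 97.7 to 102 CPM after PBS and 86.5 to 94.1 CPM after Tau; 12.2% of all genes did not overlap (6.84% higher and 5.4% lower after Tau). Stx1a, the plasma membrane SNARE syntaxin 1A, had 193, 204 and 230.3 CPM after PBS and 144, 118 and 226 CPM after Tau. Without library 773, the one at 226 CPM, DESeq2 on the groups compared alone called Stx1a lower (log2 fold change −0.69, adjusted p = 2.15e-06) among 275 genes called in all (1.85%). The same fit called Rims3 lower (−0.60, DESeq2 adjusted p = 0.05 as rounded), from 21.5, 31.6 and 25.1 CPM after PBS and 16.4 and 18.2 CPM in libraries 771 and 772.

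The Acss2 knockout alone was examined in PBS-injected males. edgeR called none of the 41 genes at an FDR under 0.05, beside 0.00662% of the genes tested, a share that is Acss2 alone. At an unadjusted p under 0.05 there were 5 genes, all higher in KO (Pclo, Syt12, Sv2c, Bsn and Rims1), beside 4.42% of all genes. The median log2 fold change of the set was 0.09, against 0.01 over all genes.

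Pclo and Bsn encode Piccolo and Bassoon, giant scaffold proteins of the active zone. Pclo had 262, 236 and 229 CPM in WT PBS and 296, 315 and 288 CPM in KO PBS, so every KO library lay above every WT library. Its log2 fold change was 0.36 ± 0.08, with an unadjusted p of 0.00087 and an edgeR FDR of 0.999. DESeq2 on the same 12 libraries called it (log2 fold change 0.37 ± 0.08, adjusted p = 0.0121), 1 of 4 genes that it called (0.0265%). On these 2 groups alone DESeq2 did not call Pclo with all libraries, and called it without library 753 (0.41, adjusted p = 0.0319) and without library 752 (0.32, adjusted p = 0.05 as rounded). Bsn stood at 455, 498 and 478 CPM in WT PBS and 555, 595 and 567 CPM in KO PBS, again without overlap, and missed the threshold in edgeR. Without library 752, DESeq2 also called Stx1a lower in KO PBS (−0.58, adjusted p = 0.0213), from 111 and 159 CPM, among 225 genes (1.51%); library 752 itself had 374 CPM.

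Sv2c and Syt12 also did not overlap between KO PBS and WT PBS. Sv2c had 7.34 to 8.16 CPM in WT and 10.4, 15.5 and 8.24 CPM in KO, with a log2 fold change of 0.60 ± 0.22 (edgeR FDR 0.999). Syt12, a synaptotagmin thought not to bind calcium, had 28.8 to 33.8 CPM in WT and 34.5, 62.7 and 37.0 CPM in KO, with 0.59 ± 0.22 at the same FDR. For both genes the highest value was in library 752, whose 8 striatum markers summed to 769.6 CPM, against 169 to 281 CPM in the other 16 libraries. With that library left out both genes still did not overlap, beside 29.2% of all genes, and their log2 fold changes were 0.31 for Sv2c and 0.27 for Syt12. In all, 5 of the 41 genes did not overlap (Syt4 was the single lower one), beside 11.7% of all genes (2.31% higher and 9.39% lower in KO).

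Male KO Tau was compared with male WT PBS, the pair that differs in both genotype and injection. edgeR called none of the 41 genes, beside 0.00662% of all genes, and the smallest FDR in the set was 0.783. DESeq2 on the 12 libraries called none of the 41 either (15 genes in all). An unadjusted p under 0.05 was reached by Synj1 and Nsf, both lower in KO Tau, beside 6.33% of all genes. Synj1, the phosphatase that strips clathrin from retrieved vesicles, had 541, 547 and 595 CPM in WT PBS and 402, 505 and 468 CPM in KO Tau. Nsf, the ATPase that separates SNARE complexes, had 1286, 1317 and 1406 CPM in WT PBS and 886, 1157 and 1185 CPM in KO Tau. Neither gene overlapped between the groups, nor did Synpr. That made 3 lower genes without overlap, beside 14.4% of all genes (6.29% higher and 8.11% lower in KO Tau). Without library 711, 7 genes of the set were higher and 6 lower without overlap. That stood beside 40.2% of all genes (2931 higher and 3133 lower).

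Against male WT Tau, the same KO Tau libraries gave 0 of 41 called by edgeR, again beside 0.00662%, and 1 gene at an unadjusted p under 0.05 (Synj1, lower), beside 4.71% of all genes. Amph, Nsf, Synj1 and Synpr were lower in KO Tau without overlap, beside 12.6% of all genes (3.85% higher and 8.76% lower). Without library 711, the same 4 were lower and 16 were higher without overlap. That stood beside 42.3% of all genes (2852 higher and 3536 lower). Amph encodes amphiphysin, which recruits dynamin, and stood at 311, 327 and 328 CPM in WT Tau and 262, 285 and 308 CPM in KO Tau. These 2 comparisons share the KO Tau libraries, so the lower values of Nsf, Synj1 and Synpr in both are not separate observations.

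Library 711 moved the KO Tau values of many genes. Fitted by DESeq2 on the groups compared, 11 of the 41 log2 fold changes against WT PBS were above 0 with library 711 and 26 without it. Their median went from −0.07 to 0.08. Against WT Tau, 20 were above 0 with it and 30 without it, and the median went from −0.01 to 0.15. With all 3 KO Tau libraries this fit called none of the 41 in either comparison. The edgeR fit of the male groups without library 711 called 1 gene in all in each comparison (0.00655%), as with it. In fits of only the groups compared, leaving out library 711 changed the counts as follows.

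Without library 711, DESeq2 called 5 of the 41 genes between KO Tau and WT PBS, beside 6.91% of all genes (1033 called). Stx1a was higher at 368 and 339.6 CPM in the remaining KO Tau libraries, against 193 to 230.3 CPM in WT PBS and 86.4 CPM in library 711 (log2 fold change 0.76 ± 0.10, adjusted p = 6.47e-11). Dnm3, a dynamin with long splice forms, was higher at 182 and 158 CPM against 130.5 to 139 CPM (0.33, DESeq2 adjusted p = 0.00635), and library 711 had 75.5 CPM. Rims3 (0.66, DESeq2 adjusted p = 0.0167) and Snap25 (0.21, DESeq2 adjusted p = 0.0173) were also higher. Synpr, which encodes synaptoporin, a synaptophysin relative enriched in mossy fibre terminals of dentate granule cells, was lower (−0.40, DESeq2 adjusted p = 0.0118). In edgeR on the same libraries, a fit added after the data were seen, Stx1a was the single gene of the set called, beside 4.15% of all genes.

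Against WT Tau without library 711, DESeq2 called 8 of the 41, beside 9.23% of all genes (1386 called). Rims3 rose from 16.4, 18.2 and 23.1 CPM in WT Tau to 35.7 and 46.3 CPM in KO Tau (log2 fold change 1.11, adjusted p = 7.14e-07), while library 711 had 10.6 CPM. Stx1a rose by 1.14 ± 0.38 on the log2 scale (DESeq2 adjusted p = 0.0351), with library 773 at 226 CPM as the highest of WT Tau. Smaller rises were called for Cplx3 (0.83), Dnm3 (0.39), Rims2 (0.35), Cplx1 (0.29) and Sv2a (0.25), and Synpr was lower (−0.44). The edgeR fit of the same 5 libraries called Rims2, Rims3 and Stx1a, beside 4.88% of all genes.

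**Figure D2:**
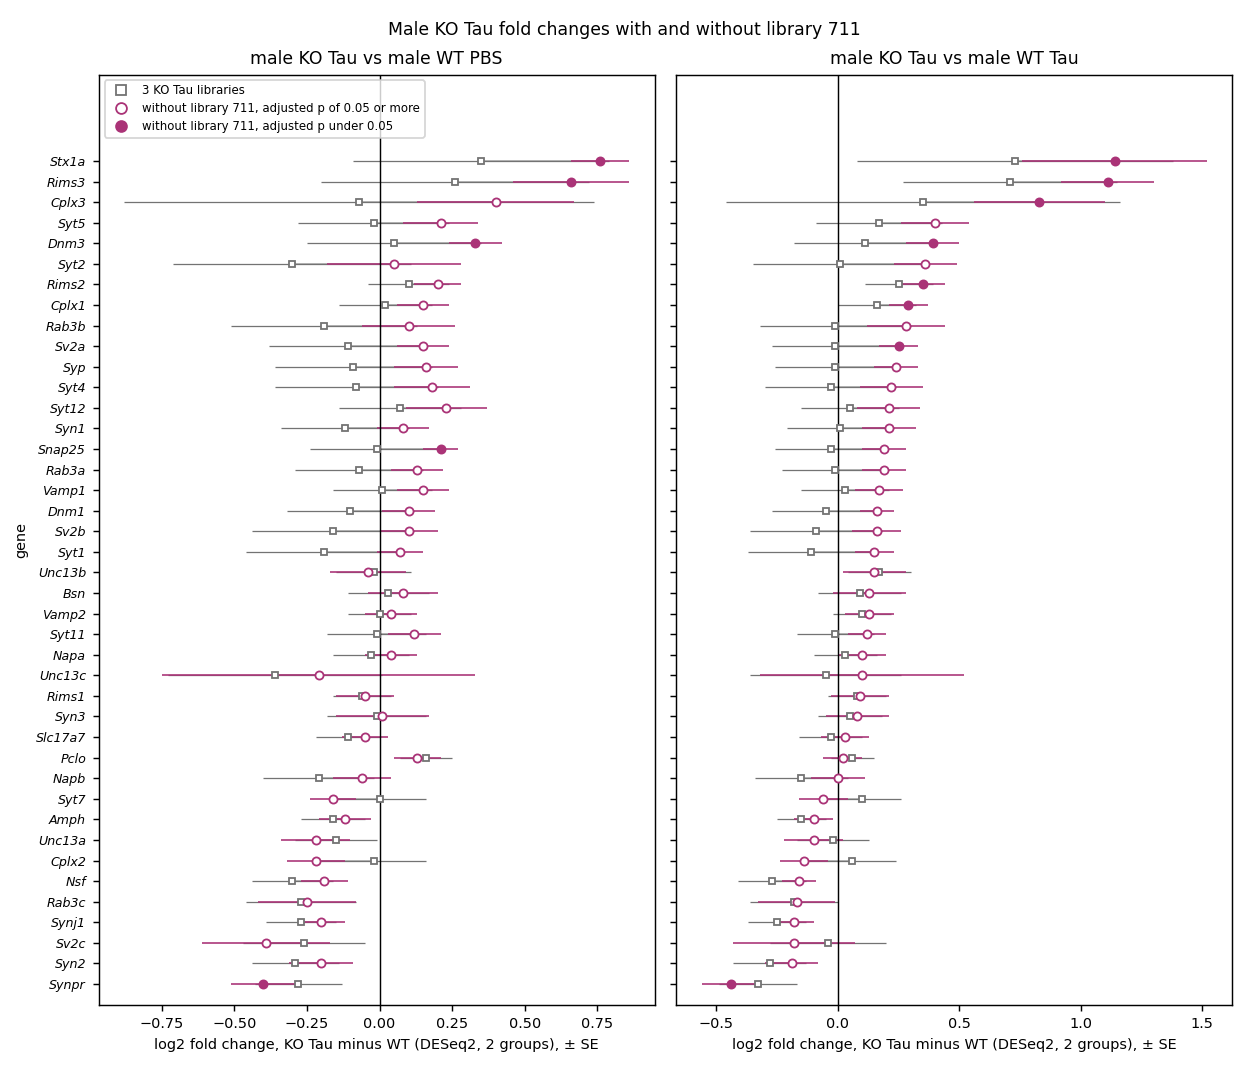
Log2 fold changes with their SE for the 41 genes (vertical axis) from DESeq2 on the groups compared, male KO Tau against male WT PBS on the left and against male WT Tau on the right. Grey squares use 3 KO Tau libraries and circles leave out library 711, filled where the adjusted p is under 0.05; most genes move to the right, and Stx1a and Rims3 lie farthest right.

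Several of the genes that moved with single libraries also moved with the amount of tissue marked by regional genes, and these pairs were picked after their values were seen. The 8 neocortex markers summed to 804 CPM in library 752, 578 in 713 and 556 in 712, and to 186 to 374 CPM in the other 14 libraries. The same 3 libraries held the 3 highest Stx1a levels (374, 339.6 and 368 CPM) and the 3 highest Rims3 levels (78.6, 46.3 and 35.7 CPM). Library 711 had the lowest neocortex sum, 186 CPM, with Stx1a at 86.4 CPM and Rims3 at 10.6 CPM. Rims3 did not follow these sums in the 5 female libraries, at 20.1 to 34.6 CPM with neocortex sums of 189 to 265 CPM. Male WT PBS had Rims3 at 21.5 to 31.6 CPM with higher sums, 339.9 to 374 CPM. Cplx3 was highest in library 712 (31.0 CPM), followed by 793 (25.1) and 752 (24.7).

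Synpr was set beside the 7 markers of dentate granule cells in the same way. Those markers summed to 165 CPM in library 712 and 210.5 in 713, against 278 to 380.3 CPM in WT PBS and 434 CPM in library 711. Synpr in those libraries was 113 and 91.2 CPM, against 127 to 144 CPM in WT PBS and 124 CPM in library 711. In male KO PBS, Synpr was 187 CPM in library 751 and 82.3 and 89.3 CPM in 752 and 753, where the dentate markers summed to 598, 133 and 233 CPM. Without library 751, DESeq2 on the 2 groups called Synpr lower in KO PBS than in WT PBS (−0.60, adjusted p = 0.000197), 1 of 15 genes called (0.101%). The part of slice composition in these differences was not tested, and no marker of these lists was at 0 in any library.

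**Figure D3:**
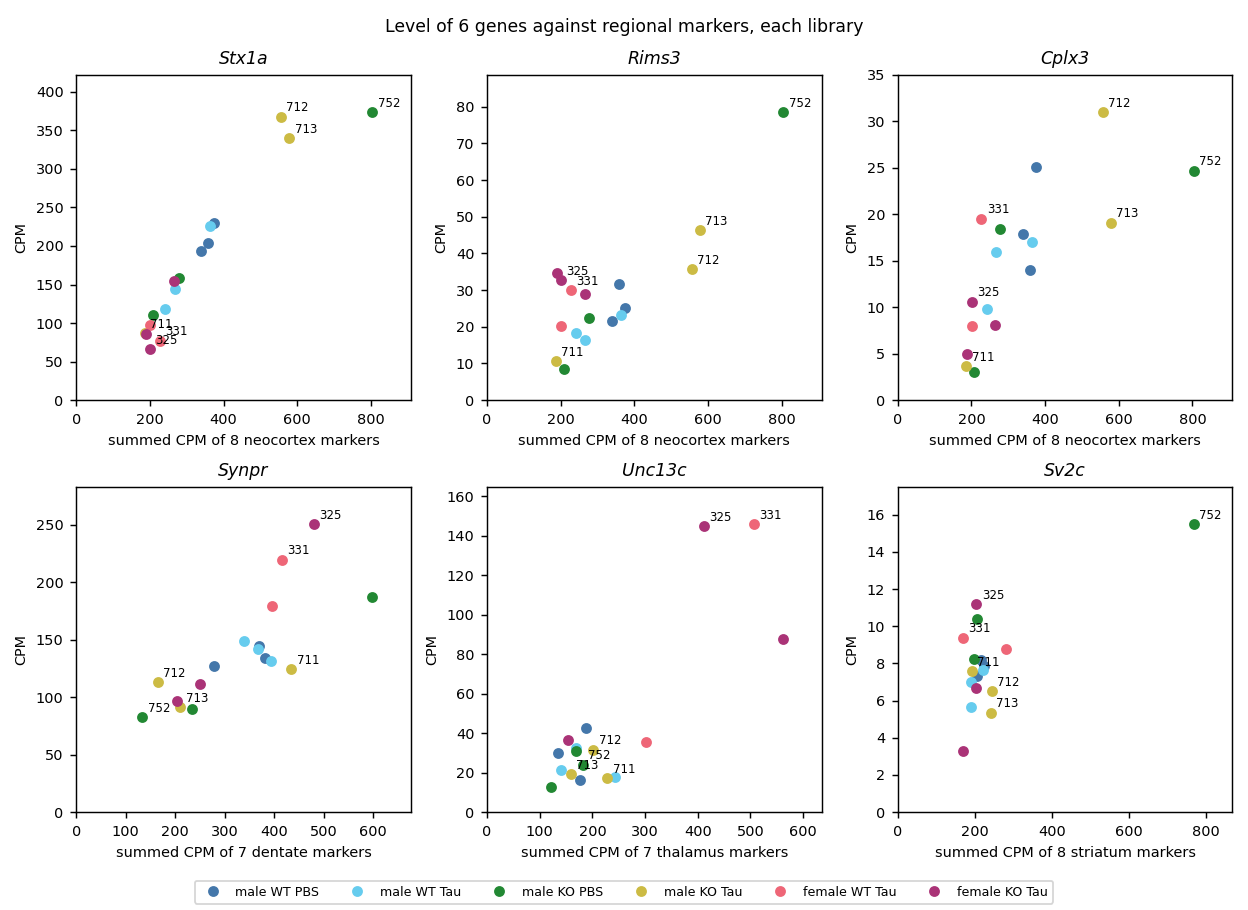
CPM of 6 genes (vertical axes) against the summed CPM of regional marker genes (horizontal axes) in each of 17 libraries, coloured by group. Stx1a and Rims3 are highest in 752, 712 and 713, which have the highest neocortex sums. In females Rims3 reaches 34.6 CPM although neocortex sums are 189 to 265 CPM. Synpr is low where dentate markers are low. Unc13c is high in 3 female libraries with thalamus sums of 411 CPM or more, and Sv2c is highest in library 752.

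Tau was compared with PBS within male KO mice. edgeR called none of the 41 genes, beside 0% of all genes, yet 9 had an unadjusted p under 0.05 and all 9 were lower after Tau, beside 7.95% of all genes. They were Sv2c, Unc13a, Synj1, Nsf, Amph, Rims1, Pclo, Syt12 and Bsn, and DESeq2 on the same libraries called none of the 41 (37 genes in all). Unc13a, the main Munc13 of excitatory terminals, had 472, 539 and 460.3 CPM after PBS and 429, 336 and 427 CPM after Tau (log2 fold change −0.35 ± 0.12, edgeR FDR 0.55). Sv2c had 10.4, 15.5 and 8.24 CPM after PBS and 7.57, 6.51 and 5.36 CPM after Tau (−0.86 ± 0.23, edgeR FDR 0.55). Pclo, Rims1, Sv2c and Unc13a were lower without overlap, 4 of 41 beside 9.01% of all genes (6.16% higher and 2.85% lower after Tau). Without library 711, 5 genes were lower without overlap (the same 4 and Cplx2) and 4 were higher (Syp, Syt4, Syt5 and Vamp2), beside 22.4% of all genes. The median log2 fold change of the set was −0.19 with library 711 and −0.05 without it. At an unadjusted p under 0.05 there were then 8 lower and 2 higher genes, beside 11.5% of all genes, and edgeR still called none. Without library 752 in KO PBS, 5 genes were lower and 1 higher at that p, beside 13.2% of all genes, and Sv2c stood at −0.58.

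The Tau effect in KO males was set against that in WT males in an interaction term. edgeR called none of the 41 genes, beside 0% of all genes, and DESeq2 called none either. The single gene with an unadjusted p under 0.05 was Pclo, beside 4.18% of all genes. Its interaction (Tau effect in KO minus that in WT) was −0.31 ± 0.11 on the log2 scale (edgeR FDR 0.996), from group means of 242 CPM in WT PBS, 263 in WT Tau, 299.8 in KO PBS and 268 in KO Tau. Without library 711 the interaction of Pclo was −0.34, the median over the set moved from −0.11 to 0.06, and 3 genes above 0 and 2 below it had an unadjusted p under 0.05, beside 8.74% of all genes. Without library 752 there were 1 above and 5 below, beside 9.25%, and edgeR called none of the 41 in either case.

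In females, KO and WT could be compared under Tau alone, with 3 against 2 libraries. edgeR called none of the 41, beside 0.00649% of all genes, and neither did DESeq2 or limma voom. At an unadjusted p under 0.05 there were 2, both higher in KO, beside 2.89% of all genes. Unc13b had 34.2 and 41.4 CPM in WT and 53.2, 47.4 and 42.4 CPM in KO, without overlap (log2 fold change 0.39 ± 0.16, edgeR FDR 0.997). Pclo had 157 and 282 CPM in WT and 358, 316 and 249 CPM in KO (0.54 ± 0.24, edgeR FDR 0.997), and its WT libraries lay farther apart than the group means.

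Library 331 is the lower of the female WT libraries for Pclo. Without library 341, DESeq2 on the 2 groups called Pclo (1.08, adjusted p = 0.0401), when library 331 stood alone for WT and was assumed to vary as the other group does. That fit called 28 genes (0.183%). Napa, Rab3a, Snap25 and Syt5 were lower in female KO without overlap, so 5 of 41 did not overlap, beside 16% of all genes (5.75% higher and 10.3% lower in KO). Without library 325, Synpr was called lower in KO (−0.83, DESeq2 adjusted p = 0.0272), 1 of 40 genes (0.269%). The genotype effect did not pass the test of a difference between the sexes for any of the 41, in edgeR or DESeq2, beside 0% of all genes in edgeR, and none of the 41 had an unadjusted p under 0.05 there, beside 2.94% of all genes.

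The clearest differences lay between the female and the male Tau libraries. edgeR called 16 of the 41 genes (39%) in this contrast, averaged over genotype, beside 23.8% of the 15419 genes tested. Of these 16, 15 were lower in females, beside 12.4% of all genes, and 1 was higher, beside 11.4%. Log2 fold changes were below 0 for 32 of the 41, with a median of −0.33 against −0.01 over all genes. The whole table thus moved a great deal in this contrast, and the set stood above that background in the lower direction, a difference to which no test was applied.

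**Figure D4:**
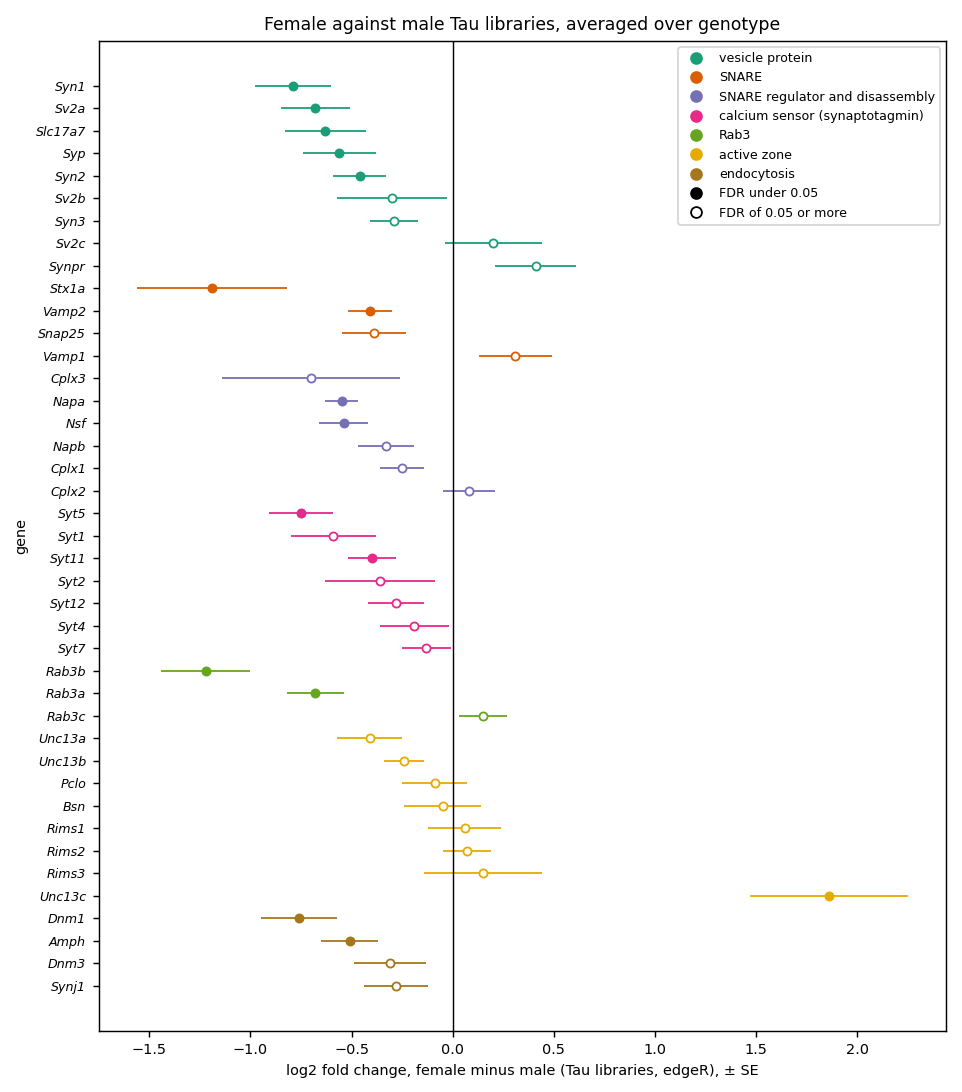
Log2 fold change with its SE, female minus male Tau libraries, for the 41 genes coloured by role, from edgeR. Filled points passed an FDR of 0.05; 15 of them lie left of 0 and Unc13c alone lies right, while the other active zone genes lie between −0.41 and 0.15.

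By role, 5 of 9 vesicle proteins, 2 of 4 SNAREs and 2 of 6 SNARE regulators and disassembly factors were called lower in females. So were 2 of 7 synaptotagmins, 2 of 3 Rab3 GTPases and 2 of 4 endocytosis genes, beside 12.4% of all genes. Of 8 active zone genes none was called lower and 1 was called higher. Called or not, log2 fold changes were below 0 for 7 of 9 vesicle proteins, 3 of 4 SNAREs and 5 of 6 regulators and disassembly factors. They were also below 0 for 7 of 7 synaptotagmins, 2 of 3 Rab3 GTPases, 4 of 4 endocytosis genes and 4 of 8 active zone genes. The median log2 fold change was −0.46 over the vesicle proteins and 0.01 over the active zone genes. The difference between the roles was not tested.

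Upstream sequences are shown for 4 genes that carry this contrast. Napa and Rab3b kept their call in 20 of 21 alternative settings, Syn1 stands for the vesicle proteins, and Unc13c was the single gene called higher. Each run gives the 250 bases before the RefSeq start and the first transcribed base, 5′ to 3′ on the gene's strand, on build GRCm38.p6. The windows are chr7:16098330-16098580 (plus strand) for Napa, chr4:108878820-108879070 (plus) for Rab3b, chrX:20920918-20921168 (minus) for Syn1 and chr9:73969037-73969287 (minus) for Unc13c. Capitals mark the cAMP response element TGACGTCA and the left part TTCAGCACC of the RE1 element bound by REST. They also mark the GC box GGGCGG or its reverse complement CCGCCC, and the TATA letters TATAAA.
Napa: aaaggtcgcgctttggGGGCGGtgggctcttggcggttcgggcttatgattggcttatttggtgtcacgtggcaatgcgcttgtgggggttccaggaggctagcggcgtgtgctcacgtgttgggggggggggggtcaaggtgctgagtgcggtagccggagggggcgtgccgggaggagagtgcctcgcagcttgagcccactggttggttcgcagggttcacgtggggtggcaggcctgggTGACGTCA
Rab3b: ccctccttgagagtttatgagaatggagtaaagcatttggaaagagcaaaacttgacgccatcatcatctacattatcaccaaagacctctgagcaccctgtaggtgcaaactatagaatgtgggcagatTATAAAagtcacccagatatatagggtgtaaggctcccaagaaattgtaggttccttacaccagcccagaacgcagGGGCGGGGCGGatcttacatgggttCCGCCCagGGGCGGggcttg
Syn1: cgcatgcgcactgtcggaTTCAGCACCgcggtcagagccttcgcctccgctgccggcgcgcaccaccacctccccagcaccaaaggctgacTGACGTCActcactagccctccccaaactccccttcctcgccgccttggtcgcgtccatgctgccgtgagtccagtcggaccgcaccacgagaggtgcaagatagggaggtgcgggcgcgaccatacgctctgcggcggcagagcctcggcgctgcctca
Unc13c: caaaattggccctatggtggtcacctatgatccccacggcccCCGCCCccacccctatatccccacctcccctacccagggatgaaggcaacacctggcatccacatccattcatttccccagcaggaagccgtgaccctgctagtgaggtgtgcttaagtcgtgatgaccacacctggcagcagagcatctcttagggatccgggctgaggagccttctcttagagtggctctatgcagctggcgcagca

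The Napa run ends in TGACGTCA, whose first base lies 7 bases before the RefSeq start. Syn1 holds the same letters 159 bases before its RefSeq start. The GENCODE vM21 annotation, used for exon lengths, starts Napa at 16098458 and Syn1 at 20921004. By it the last part of both runs lies inside the gene, with the TGACGTCA of Napa. Rab3b holds 4 GC boxes within 44 bases of its start, of which the farther pair overlaps, and no TGACGTCA. Promoters of RefSeq were found for 33 of the 41 genes, and motifs were searched on both strands of windows of 300 bases. TGACGTCA stood in 2 of the 33 (6.06%), Syn1 and Napa, against 1.88% of the 27025 promoters of the table. GGGCGG stood in 24 of 33 (72.7% against 35.9%), TTCAGCACC in Syn1 and Unc13a (6.06% against 0.359%), TATAAA in Sv2b and Rab3b (6.06% against 14.2%) and the CCAAT box in 10 (30.3% against 37.9%). TGCGCA, the core of the NRF1 site, stood in 8 of 33 (24.2% against 8.06%). These are matches of letters and not sites.

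Napa and Nsf act together, since Napa encodes the adaptor alpha-SNAP that brings NSF to spent SNARE complexes. Napa had 242 to 307 CPM in the 6 male Tau libraries (median 271) and 204, 207, 180, 182 and 199 CPM in the 5 female libraries, without overlap. The fold was 1.46 in favour of males (log2 fold change −0.55 ± 0.08, edgeR FDR 0.00478). The male PBS libraries, at 274 to 303 CPM, also lay above every female one. Nsf had 886 to 1351 CPM in male Tau (median 1231) and 738, 1011, 883, 775 and 851 CPM in females (−0.54 ± 0.12, edgeR FDR 0.0144), with library 711 alone inside the female range. Napb, the brain form of the adaptor, had −0.33 ± 0.14 and was not called.

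The Rab3 GTPases attach to vesicles and to the Rim scaffold. Rab3b had 27.1 to 69.7 CPM in male Tau (median 54.7) and 28.0, 24.8, 25.7, 17 and 17.7 CPM in females, a fold of 2.32 in favour of males (−1.22 ± 0.22, edgeR FDR 0.00745). Library 711, at 27.1 CPM, was the single male library in the female range. Rab3a had 384 to 692 CPM in male Tau (median 597) and 372, 428, 337, 357 and 349.7 CPM in females (−0.68 ± 0.14, edgeR FDR 0.0109). Rab3c had 357 to 548 CPM in male Tau and 498 to 602 CPM in females and was not called (0.15 on the log2 scale).

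Among the vesicle proteins, Syn1, the most abundant synapsin, showed the largest called difference. Syn1 had 434 to 750.1 CPM in male Tau (median 666) and 299, 436, 493, 385 and 332 CPM in females, a fold of 1.73 in favour of males (−0.79 ± 0.19, edgeR FDR 0.0157). Sv2a, the vesicle glycoprotein that binds the drug levetiracetam, had 322 to 694 CPM in male Tau and 341, 423, 342, 352 and 339 CPM in females (−0.68 ± 0.17, edgeR FDR 0.0207). Slc17a7 had 1408 to 1814 CPM in male Tau and 723, 1358, 1273, 1281 and 784 CPM in females, without overlap (−0.63 ± 0.20, edgeR FDR 0.0428). Its female libraries fell apart into 2 low values, in 331 and 325, and 3 between 1273 and 1358 CPM. Syp (−0.56 ± 0.18, edgeR FDR 0.045) and Syn2 (−0.46 ± 0.13, edgeR FDR 0.0326) were lower too. Synpr, by contrast, had 219.6, 179, 111, 96.8 and 250.4 CPM in females and 91.2 to 149 CPM in male Tau, and was not called (0.41, edgeR FDR 0.148).

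Of the SNAREs, Vamp2 had 1017 to 1257 CPM in male Tau and 841, 896, 989.6, 851 and 801 CPM in females, without overlap (−0.41 ± 0.11, edgeR FDR 0.0239). Stx1a had 86.4 to 368 CPM in male Tau and 77.2, 97.7, 154, 86.1 and 65.8 CPM in females (−1.19 ± 0.37, edgeR FDR 0.0404). The male Stx1a range is the wide one described above with the neocortex markers, whose sums were 186 to 578 CPM in male Tau and 189 to 265 CPM in females. Snap25 had 1781 to 3191 CPM in male Tau and 1908 to 2419 CPM in females and was not called (−0.39, edgeR FDR 0.0909).

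Among the synaptotagmins, Syt5, found on dense core and synaptic vesicles, had 111 to 233 CPM in male Tau and 113, 117, 99.9, 84.3 and 98.1 CPM in females (−0.75 ± 0.16, edgeR FDR 0.0124). Syt11, a synaptotagmin thought not to bind calcium, had 823 to 1221 CPM in male Tau and 821, 956, 750.3, 846 and 737 CPM in females (−0.40 ± 0.12, edgeR FDR 0.035). Library 711 held the lowest male value of both. Syt1, the sensor of fast release, had 999.9 to 2121 CPM in male Tau and 917 to 1490.1 CPM in females and was not called (−0.59, edgeR FDR 0.0595).

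For membrane retrieval, Dnm1 had 1114 to 1988 CPM in male Tau (median 1744) and 760.2, 1259, 1172, 1152 and 864 CPM in females (−0.76 ± 0.19, edgeR FDR 0.0199). Amph had 262 to 328 CPM in male Tau and 168, 246, 262, 254 and 191 CPM in females (−0.51 ± 0.14, edgeR FDR 0.0236). The other 2 endocytosis genes, Dnm3 and Synj1, had log2 fold changes of −0.31 and −0.28 and were not called.

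Unc13c, a Munc13 best known from cerebellar granule cells, was the gene that ran the other way. It had 17.3 to 32.7 CPM in male Tau (median 20.3) and 146, 35.4, 36.7, 87.6 and 145 CPM in females, without overlap, a fold of 3.64 in favour of females (1.86 ± 0.39, edgeR FDR 0.0107). Male WT PBS library 791, at 42.5 CPM, lay above 2 of the female values. The 3 female libraries with the highest Unc13c (331, 325 and 324) also had the highest sums of 7 thalamus markers, 506, 411 and 562 CPM, against 301 and 154 CPM in the other two females and 141 to 243 CPM in male Tau. Without library 331, Unc13c was no longer called, and within either genotype alone it was not called (edgeR FDR 0.127 in WT and 0.0538 in KO). Unc13a had 336 to 441 CPM in male Tau and 219, 349, 401, 366 and 288 CPM in females, with library 331 the lowest. Its log2 fold change, −0.41 ± 0.16, was as large as that of Vamp2 and missed the threshold in edgeR (FDR 0.0744), while DESeq2 called it (adjusted p = 0.0462). Unc13b had −0.24 (edgeR FDR 0.109). The log2 fold changes of the other 5 active zone genes ran from −0.09 to 0.15. Among them Pclo ran from 157 to 358 CPM and Bsn from 302 to 694 CPM within females, against 252 to 275 and 409 to 563 CPM in male Tau.

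**Figure D5:**
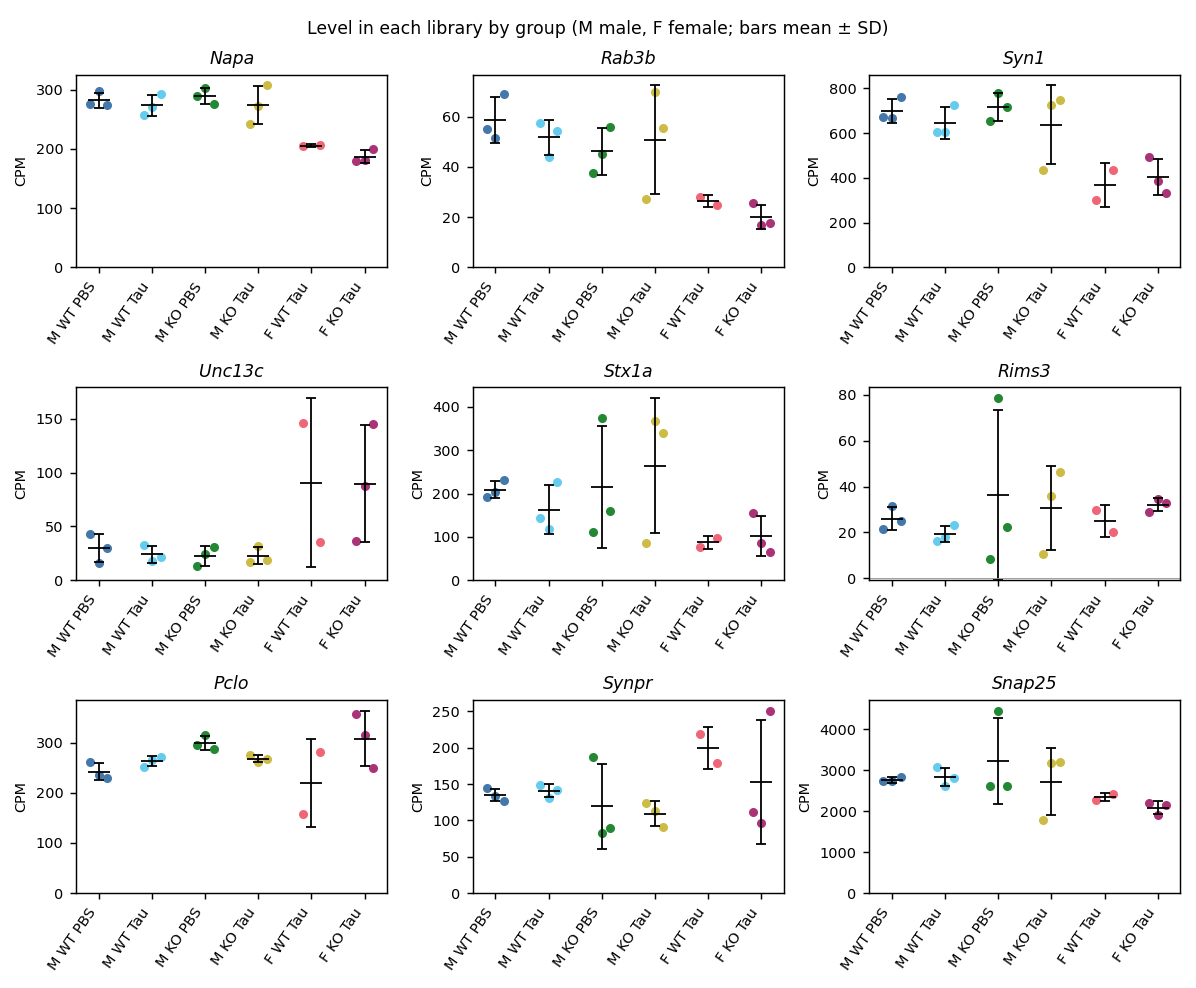
CPM of 9 genes in each library (points) of the 6 groups, with the mean and SD (bars) over 2 or 3 libraries. Napa in females (180 to 207 CPM) lies below every male library; Unc13c is high in 3 female libraries; Stx1a, Rims3 and Snap25 have 1 library far from the others in male KO PBS (752) and in male KO Tau (711).

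Within each genotype the female to male contrast had fewer libraries. Between female and male KO Tau, edgeR called 4 of the 41, all lower in females, beside 6.33% of all genes. They were Napa (−0.60, edgeR FDR 0.0287), Rab3b (−1.38, edgeR FDR 0.0345), Syt5 (−0.95, edgeR FDR 0.0383) and Rab3a (−0.75, edgeR FDR 0.046). Between female and male WT Tau, with 2 against 3 libraries, edgeR called 0, beside 0.37% of all genes. There 34 of the 41 log2 fold changes were below 0, and Napa had −0.49 (edgeR FDR 0.105).

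Single libraries moved the count of 16 in both directions. Without library 331 it was 2 (Napa and Rab3b), beside 3.99% of all genes, and without library 711 it was 25, beside 40.7%. With both left out, a fit added after the data were seen, it was 19, beside 30%, and Slc17a7 and Amph were not among them. Leaving out library 713 or 773 gave 7 each, and library 712 or 771 gave 10 each. A surrogate variable in the model gave 6 (Napa, Rab3a, Rab3b, Rims3, Syt5 and Unc13c), beside 6.03% of all genes. Each of the 16 genes kept its sign in 21 of 21 alternatives.

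Markers of other cell types moved in the same contrast. The summed level of 5 astrocyte markers was 1173 to 2454 CPM in male Tau and 2403 to 4095 CPM in females, with 3 of 5 called higher in females by edgeR. Oligodendrocyte markers summed to 3087 to 6927 CPM in male Tau and 4327 to 11133 CPM in females (1 of 5 called, higher), and endothelial markers to 117 to 176 and 165 to 235 CPM (3 of 4 called, higher). Markers of inhibitory neurons summed to 633 to 1059 CPM in male Tau and 499 to 705 CPM in females (4 of 7 called, lower). Of the regional lists, 3 of 7 thalamus markers were called higher, and 3 of 8 neocortex and 1 of 4 CA1 markers lower. Microglia markers summed to 272 to 365 CPM in male Tau and 335 to 385 CPM in females (1 of 5 called, higher). No marker of striatum, dentate granule cells, CA3 or choroid plexus was called. Choroid plexus markers summed to 3999 CPM in male KO Tau library 713 and to at most 571 CPM in any other library.

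The sum of 6 general neuron markers was 3432 to 3680.2 CPM in male Tau and 3437 to 4268 CPM in females, with 3 called lower and 1 higher. Ribosomal protein genes, of which 17 of 74 tested were called higher in females, summed to 8768 to 13175 CPM in male Tau and 10819 to 16277 CPM in females. Library 711 held the highest male Tau sums for astrocytes (2454), oligodendrocytes (6927) and ribosomal proteins (13175) and the lowest male level of 24 of the 41 genes. The part of tissue makeup or RNA quality in the differences of the 41 genes was not tested.

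Transcript length also moved with this contrast within the set. Over the 41 genes the log2 fold change (female minus male) and the exon length had a Spearman rho of 0.62, against 0.00 over 15312 genes with a length. For GC content rho was −0.41 over the 41 and −0.37 over all genes. Genes with short exon models such as Rab3a (2.23 kb), Syt5 (2.38 kb) and Stx1a (2.67 kb) were among those called lower in females. Genes with long models such as Pclo (22.5 kb) and Dnm3 (24.5 kb, −0.31) were not called. Neither were Cplx1 (−0.25, edgeR FDR 0.11), which has the shortest model at 2.19 kb, and Cplx3 (2.95 kb, −0.70, edgeR FDR 0.252). The points share libraries and are not independent. With offsets that remove trends on length and GC in each library, edgeR called 18 of the 41, beside 18.4% of all genes, 17 of them lower in females. The offsets follow trends over all genes, where rho with length was 0.00, so the relation with length within the 41 was not tested by them. Stx1a, Slc17a7 and Vamp2 lost their calls under these offsets, and Napb, Snap25, Syn3, Syt1 and Unc13b gained one.

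A list of 82 further genes of vesicle release and recycling was examined in the same fits, of which 81 were tested. None of the 81 was called by edgeR in any genotype, Tau or interaction comparison, and 0 to 10 of them had an unadjusted p under 0.05 there, with the most between KO Tau and KO PBS in males (12.3%, beside 7.95% of all genes). Between female and male Tau libraries 22 of 81 (27.2%) were called, beside 23.8% of all genes. Of these, 19 were lower in females, beside 12.4% of all genes, and 3 were higher, beside 11.4%. Log2 fold changes were below 0 for 60 of the 81, with a median of −0.23 against −0.01 over all genes. No test was applied to this difference. Lower genes included Sncb, which encodes beta-synuclein (−1.02 on the log2 scale, edgeR FDR 0.00934), and Syngr1, a vesicle membrane protein (−0.78, edgeR FDR 0.0175). The 3 higher ones were Vamp7 (0.92 ± 0.15, edgeR FDR 0.00569), Snap23 (0.72, edgeR FDR 0.0143) and Vamp3 (0.59, edgeR FDR 0.0197), which are SNAREs of general membrane traffic found in many cell types.

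Tested for any difference among the 6 groups in 1 fit of all 17 libraries, 13 of the 41 genes were called by edgeR, beside 19% of 15594 genes. They were Napa, Nsf, Rab3b, Rab3a, Syt5, Syn1, Sv2a, Dnm1, Unc13c, Amph, Vamp2, Syt11 and Unc13a, and all but Unc13a were also called between female and male Tau libraries. Napa had the smallest edgeR FDR, 0.00194. Its mean was 282 ± 12.5 CPM (SD, n = 3) in male WT PBS and 187 ± 10.2 CPM (SD, n = 3) in female KO Tau. Its 12 male libraries ran from 242 to 307 CPM and its 5 female libraries from 180 to 207 CPM.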

How the data were processed

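The authors aligned reads with STAR 2.5.2 to GRCm38 and took exon counts per gene from HTSeq 0.9.1, run as reverse stranded; the submitters' notes also name SAMtools 1.1. The annotation release is not given in the sources used here. The deposited values are raw counts per gene symbol, not normalized, for 17 libraries, and reads of near-identical genes may be shared or divided between symbols. The study tested libraries of male mice with DESeq2, and used 2 of the 3 male KO Tau libraries.

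CPM (counts scaled to 1000000) were computed on library totals. The main test was the quasi-likelihood test of edgeR 4.0.16 under R 4.3.3 (TMM factors, filterByExpr with a minimum count of 10 and a minimum total of 15, Benjamini-Hochberg adjustment over all genes tested). Male contrasts came from 1 fit of 12 libraries (15098 genes), Tau contrasts with females from 1 fit of 11 libraries (15419 genes), and the test of any difference from all 17 (15594 genes). Fold changes are log2 with SE. TMM factors ran from 0.949 to 1.08. The limit that a count of 0 allows (3 counts) was 0.134 to 0.212 CPM and covers counting error only. No 2 libraries agreed within sampling noise among 136 pairs.

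Alternatives were DESeq2 1.42.0 (on the same libraries or only the groups compared), RLE factors, no filter, other sets of libraries, voom with quality weights in limma 3.58.1, 1 surrogate variable from sva 3.50.0, length and GC offsets (splines with 5 degrees of freedom), and each library left out. Fits were tested on simulated data. Exon length, GC and positions came from GENCODE vM21, matched for 98.5% of symbols, and promoters from RefSeq (GRCm38.p6). The members and lists were chosen with earlier results of these data known. All members could be named; test values are given for members called in a comparison by edgeR or by DESeq2 on the groups compared, or else for those with the smallest unadjusted p, and for other pathway genes that were called.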

Additional observations from a re-analysis of the deposited data

How the results depend on the processing

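No paired analysis was possible because the groups share no replicate numbers. Leaving out 1 library at a time gave 0 to 275 genes called (0 to 2 of the 41 members) for male WT Tau against WT PBS, 1 to 225 (0 to 2) for KO PBS against WT PBS, 1 to 1033 (0 to 5) for KO Tau against WT PBS, 1 to 1386 (0 to 8) for KO Tau against WT Tau, 0 to 22 (0) for KO Tau against KO PBS, 0 to 40 (0 to 1) for female KO against WT, 628 to 6290 (2 to 25) for female against male Tau libraries and 1664 to 4703 (8 to 20) for any difference. Both interactions had 0 genes called in each such fit. For comparisons of 2 groups, these ranges join edgeR fits with DESeq2 on only the groups compared. The upper ends of 275, 225, 1033 and 1386 genes came from DESeq2. Without library 711, edgeR on the male groups called 1 gene for KO Tau against WT PBS and 1 against WT Tau.

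Counts that moved by over 1.5 times, in the same order, were these. DESeq2 on only the groups compared called 11 genes for WT Tau against WT PBS, 4 for KO PBS against WT PBS, 24 and 33 for KO Tau against WT PBS and WT Tau, and 4 for female KO against WT. DESeq2 on the shared fits called 4 genes (1 member) for KO PBS, 15, 7 and 37 for KO Tau against WT PBS, WT Tau and KO PBS, 2 for the sex by genotype interaction and 4519 for any difference. Quality weights called 11 and 2 genes for KO Tau against WT PBS and WT Tau, 6189 (25 members) for female against male, and 5404 (21 members) for any difference. For KO Tau against WT PBS, 1 surrogate variable gave 2 and all 17 libraries 3. For female against male, 1 surrogate variable gave 930 (6 members), WT alone 57 (0) and KO alone 976 (4). Female KO against WT fitted on those groups alone gave 0.

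Signs reversed for these log2 fold changes, and the cause was not tested. In WT Tau against WT PBS, Synpr was −0.03 with a surrogate variable, and Snap25 −0.03 with length and GC offsets and −0.04 to 0.08 with a library left out. In KO PBS against WT PBS, Stx1a was −0.28 with quality weights, −0.20 with a surrogate variable and −0.58 to 0.41 with a library left out, and Synpr −0.61 to 0.10. In KO Tau against WT PBS, Snap25 was 0.16 with quality weights, 0.04 with offsets and −0.15 to 0.21 with a library left out. There a surrogate variable gave Stx1a −0.11, Rims3 −0.26 and Dnm3 −0.16, and a library left out gave Rims3 −0.16 to 0.66 and Dnm3 −0.19 to 0.33. In KO Tau against WT Tau, Sv2a was 0.16 with quality weights. A surrogate variable gave Rims3 −0.08, Cplx1 0.00, Cplx3 −0.57 and Dnm3 −0.23. A library left out gave Sv2a −0.22 to 0.25, Cplx3 −0.29 to 0.83 and Dnm3 −0.14 to 0.39. Syt5 ran from −0.09 to 0.40 in KO Tau against KO PBS, Cplx3 from −1.24 to 0.01 in female KO against WT, and Cplx3 was 0.03 in the sex by genotype interaction with a surrogate variable. In all, 1488 fold changes kept direction and side of the threshold, 107 lost and 23 gained a call with the same sign, and 48 reversed.

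The lowest count of any of these genes was 48. Groups of 2 or 3 libraries limited the precision, and libraries 711, 752, 773 and 331 were among those that changed calls when left out.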
